A study of Mus musculus with 18 samples.

Results

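Brain cortex of BALB/c mice at 6 days after ischemic injury was compared with cortex of control mice of the same strain, with 3 libraries in each group. The 6 libraries were chosen by their labels for tissue and treatment, out of 18 libraries in the series. All genes of the deposited count table entered, with identical copies of a gene name kept once, and 18151 of the 25918 names passed a filter on low counts and were tested. The tissue included ischemic and peri-ischemic regions, per the labels. The labels do not tell how the injury was made, whether the controls had sham surgery or how old the mice were. The series also holds cortex at 2 days after injury, whose 3 libraries helped to estimate the spread, and skull bone, which was not used. Whether a library stands for 1 animal is not stated either, and p-values cover the spread between libraries, which may be technical.

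In an ischemic stroke the blocked vessel leaves a core of dying tissue with stressed, partly surviving tissue around it. In the days that follow, resident microglia and macrophages derived from blood monocytes take up dead cells and myelin debris, digest them in lysosomes, and have to store or export the cholesterol that is set free. Astrocytes around the core become reactive and form a border, while fibroblasts and cells of the vessel wall lay down collagen-rich matrix in the core.

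The day 6 libraries held 19778879, 22236424 and 13005050 counts in replicates 1, 2 and 3, against 23673255, 27654269 and 25050532 counts in the controls. On the leading principal component of the 9 cortex libraries, which carried 46.7% of the variance, the day 6 libraries lay at -5.81, 35 and 20.8 and the controls at -56, -66.2 and -71.2. Day 6 replicate 1 therefore lay nearest to the controls, and this recurs in the genes described here. Levels are given as CPM, the read count normalised to library size after scaling by TMM factors, in the order of replicates 1, 2 and 3.

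The labelled tissue was checked against marker genes. The 11 markers of excitatory cortical neurons summed to 6531, 5439 and 6221 CPM in the day 6 libraries, against 5743, 6637 and 6883 CPM in the controls, and the 10 markers of inhibitory neurons included Gad1 at 369, 369 and 351 CPM, against 397, 418 and 492 CPM. The groups overlapped in the excitatory sum, and Gad1, the enzyme that makes GABA, was lower in every day 6 library without passing the test (adjusted p = 0.374). In bulk tissue, fewer cells of a type and less RNA per cell cannot be told apart, in either direction. Genes of the striatum, the deep nucleus beneath the cortex, varied between the controls themselves: the 7 genes tested summed to 152, 116 and 127 CPM in the day 6 libraries, against 155, 401 and 559 CPM in the controls, with control replicate 1 close to the day 6 libraries. The dopamine-signalling protein gene Ppp1r1b had 54.9, 44.2 and 47.8 CPM at day 6, against 62.96, 168 and 226 CPM in the controls. The day 2 libraries, which share the estimate of the spread, summed to 167, 124 and 1031 CPM in the 7 striatal genes. How far the share of striatum in the dissected piece entered other neuronal genes was not tested. The choroid plexus carrier gene Ttr had 0.669, 0.183 and 0.323 CPM in the day 6 libraries, against 24.3, 22.6 and 14.9 CPM in the controls, and was not called (adjusted p = 0.223). The day 2 libraries, which share the estimate of the spread, had 1.94, 202 and 4.098 CPM, with replicate 2 far above the other 2, and Ttr was called lower in the fit of the day 6 and control libraries alone (adjusted p = 3.02e-05). Of 4 choroid plexus genes tested, Kl was called lower, at 1.18, 1.51 and 2.505 CPM against 6.54, 5.43 and 2.998 CPM (adjusted p = 0.0396), a call that was lost without day 6 replicate 1 or 2 or control replicate 1 or 2. The median log2 change of the choroid plexus list was -1.97. Haemoglobin and other erythroid genes (5 tested, median 0.21), osteoblast genes (4, median -0.12) and skeletal muscle genes (5, median 0.04) had no member called by edgeR, and these 3 lists had 0, 1 and 0 members at an unadjusted p below 0.05 and none called by DESeq2 or limma voom. Hbb-bs, a haemoglobin gene, had 48.5, 50.4 and 51.1 CPM at day 6, against 47.8, 47.2 and 46.8 CPM in the controls.

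A gene was called where the p-value of edgeR's quasi-likelihood test, adjusted by Benjamini-Hochberg over all genes tested, lay below 0.05. At day 6, 1873 genes were called (10.3%), 1440 of them higher (7.93%) and 433 lower (2.39%) than in the controls. In 1857 of the 1873 the day 6 and control libraries did not overlap. A lack of overlap in a called gene therefore adds little to its call. Rises were larger than falls. The median size of the log2 change was 1.46 among genes called higher, of which 972 changed at least 2-fold and 131 at least 16-fold, and 0.52 among genes called lower, of which 90 changed at least 2-fold and 4 at least 16-fold. Over all genes tested the median log2 change was -0.02. The day 6 libraries were not alike: replicate 2 was the highest of the 3 in 1123 of the 1440 genes called higher (78.0%), against 37.1% of all genes tested, and replicate 1 was the lowest in 1185 (82.3%), against 39.0%. The number of calls was 1005 without day 6 replicate 2, 1131 without day 6 replicate 3, 1156 without control replicate 2 and 1138 without control replicate 3, and 872 genes were called in the full set and without any 1 of the 6 libraries.

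The genes were grouped into 55 lists of cell types and processes that hold 1011 genes, of which 1000 are in the table and 949 were tested. Counts of called members are read against the background of 7.93% higher and 2.39% lower. Changes are fitted log2 differences, day 6 minus control, with their standard error (SE).

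**Figure D1:**
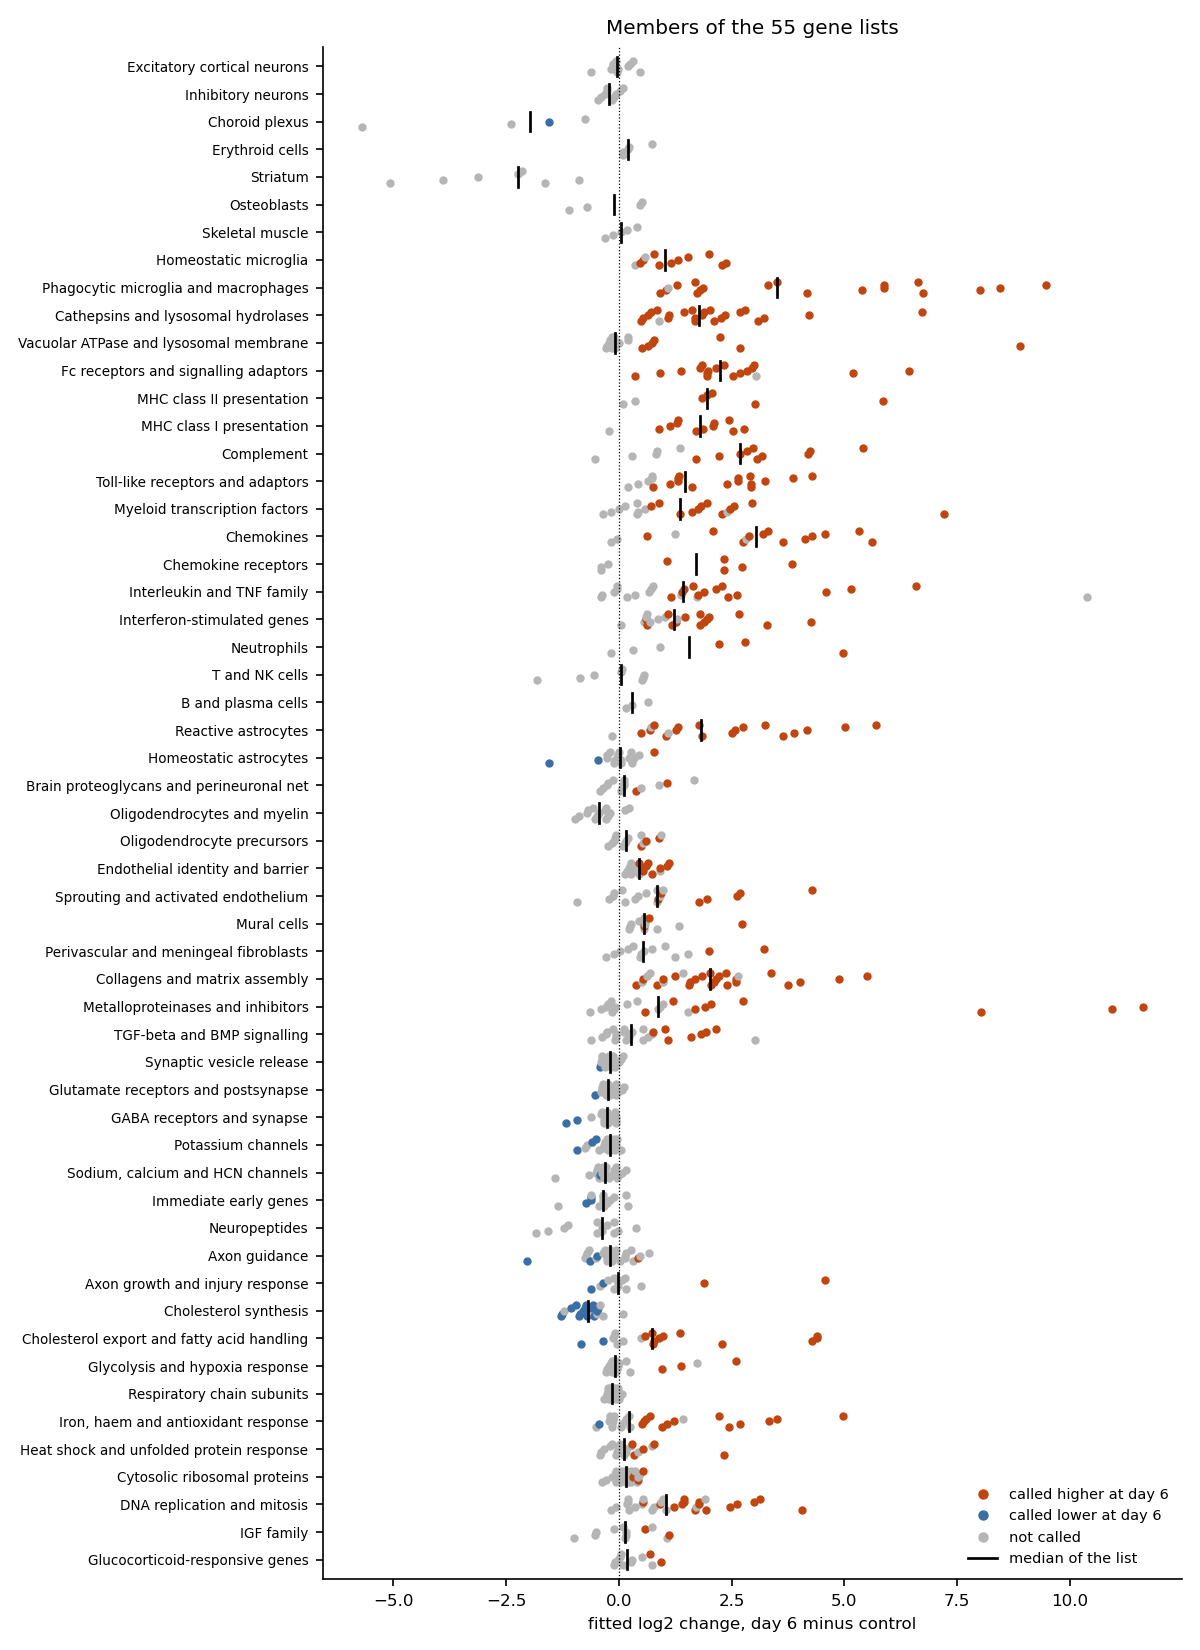
Each point is 1 tested member of the 55 gene lists, placed by its fitted log2 change (day 6 minus control); orange points were called higher at day 6, blue points lower, grey points were not called, and the bar marks the median of the list. Lists of microglia, lysosomal hydrolases, immune receptors, reactive astrocytes and collagens lie to the right of 0 with most members called higher, and cholesterol synthesis lies to the left. Lists of neuronal genes other than the striatal list have medians slightly below 0, from -0.39 (neuropeptides) to -0.02 (axon growth and injury), with few members called. Fitted values of genes with few or no control counts depend on the prior count of 0.125.

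The 10 genes with the largest rise were Mmp12, Spp1, Atp6v0d2, Gpnmb, Rny1, Rn7sk, Mmp13, Msr1, Lilr4b and Cd22. Mmp12, the macrophage elastase (chromosome 9, 7344381 to 7369499, build mm10), had 53.9, 237 and 144 CPM in the day 6 libraries, against 0, 0.112 and 0 CPM in the controls. With 3 reads in the controls, the ratio was 3720 (95% counting interval 1273 to 18040, adjusted p = 0.00237). Spp1, which encodes the secreted matrix protein osteopontin, had 742, 4023 and 2324 CPM at day 6, against 3.39, 2.901 and 3.66 CPM in the controls. Day 6 replicate 2 held over 5 times the level of replicate 1, and even replicate 1 lay far above every control (log2 change 9.48 ± 0.83, adjusted p = 9.94e-04). Atp6v0d2, a subunit of the proton pump found in osteoclasts and some macrophages (chromosome 4, 19876841 to 19922605), had 4.27, 27.4 and 15.3 CPM at day 6, against 0.0838, 0 and 0 CPM in the controls. On 2 control reads its ratio was 607 (168 to 5021, adjusted p = 8.00e-04). Gpnmb, a glycoprotein of lysosomes in lipid-laden macrophages, had 163, 609.6 and 411 CPM, against 2.26, 0.2603 and 0.916 CPM in the controls (log2 change 8.45 ± 0.87, adjusted p = 0.00191). Msr1, the class A scavenger receptor, had 18.1, 62.3 and 37.5 CPM, against 0.251, 0.112 and 0.0833 CPM (log2 change 8.01 ± 0.67). In each of these 5 genes day 6 replicate 2 was the highest and replicate 1 the lowest, and no day 6 library overlapped a control.

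The list of the largest rises went on with Mmp13, a collagenase, at 6.59, 61.5 and 31.1 CPM in the day 6 libraries, against 0.0419, 0 and 0.333 CPM in the controls. Its log2 change was 8.03 ± 1.27 (adjusted p = 0.00869), and limma voom did not call it (adjusted p = 0.142). Lilr4b, a leukocyte immunoglobulin-like receptor with near copies in the genome, so that its counts are uncertain, had 12.7, 58.8 and 31.3 CPM, against 0.335, 0 and 0.167 CPM (log2 change 7.68 ± 0.90). Cd22, a lectin for sialic acid that restrains B cells and is also found on microglia of aged mice, had 3.19, 10.8 and 5.898 CPM at day 6, against 0.0838, 0 and 0.0416 CPM. On 3 control reads the ratio for Cd22 was 173 (58.7 to 842, adjusted p = 3.08e-05), while other B cell genes were not called, as given with the lymphocytes.

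A different pair of genes stood among the largest rises. Rny1, the small Y RNA that binds the Ro protein, had 21.2, 14.7 and 39.7 CPM in the day 6 libraries, against 0.126, 0.0372 and 0.0416 CPM in the controls (log2 change 8.42 ± 0.71, adjusted p = 1.02e-04). Rn7sk, the small nuclear RNA that holds back an elongation factor of RNA polymerase II, had 254, 215 and 675 CPM, against 1.13, 1.08 and 1.54 CPM (log2 change 8.25 ± 0.90, adjusted p = 0.00253). For these RNAs replicate 3, not replicate 2, was the highest day 6 library. Neither carries a poly(A) tail, and the libraries were made by selecting poly(A) tails. Other classes in which at least some members lack a tail or have a short one were therefore looked up after these values had been seen. The 4 small RNAs tested summed to 276.7, 231.7 and 716.7 CPM at day 6, against 1.68, 1.34 and 2.00 CPM in the controls, with 3 of 4 called higher. The 2 mitochondrial ribosomal RNAs, which have short tails at most, summed to 18810, 13840 and 22980 CPM, against 10800, 12070 and 10090 CPM, with 2 of 2 called higher. Histone genes were taken by names that begin with Hist, without selecting those whose RNA lacks a tail. They summed to 84.0, 76.2 and 97.5 CPM, against 61.2, 66.6 and 56.4 CPM, with 7 of 20 called higher. The part of library preparation in these values was not tested.

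**Figure D2:**
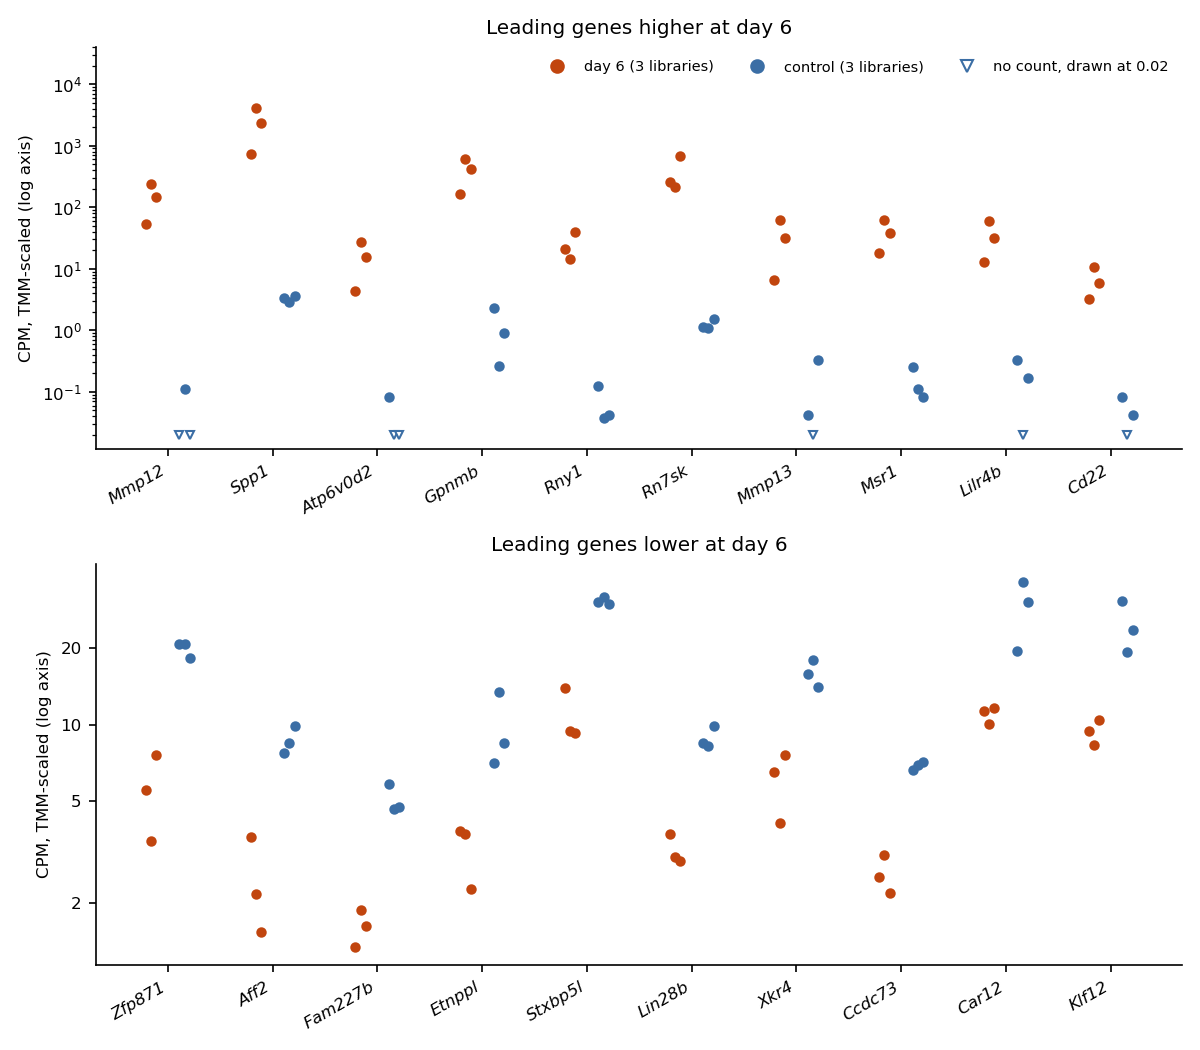
Level of the 10 top rises and the 10 top falls in each library, in TMM-scaled CPM on a log axis, with orange points for the 3 day 6 libraries and blue points for the 3 controls; open triangles mark a library with no count. No day 6 point overlaps a control point in these 20 genes, as the rule that chose them requires. Distances between the groups are far wider in the rises than in the falls.

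Falls were smaller and mixed in kind. Zfp871, a zinc finger gene, had 5.56, 3.48 and 7.59 CPM in the day 6 libraries, against 20.8, 20.8 and 18.3 CPM in the controls (log2 change -1.87 ± 0.37, adjusted p = 0.00958). Aff2, a nuclear protein of the family that serves transcript elongation, had 3.604, 2.15 and 1.53 CPM, against 7.71, 8.44 and 9.91 CPM (log2 change -1.81 ± 0.30). Stxbp5l, the tomosyn that holds back transmitter release, had 13.9, 9.48 and 9.29 CPM, against 30.3, 31.7 and 29.7 CPM (log2 change -1.48 ± 0.28). All 3 day 6 libraries lay below all 3 controls in each. Lin28b, an RNA-binding protein that blocks maturation of let-7 microRNAs, had 3.71, 3.02 and 2.91 CPM at day 6, against 8.503, 8.22 and 9.91 CPM in the controls. Klf12, a transcriptional repressor, had 9.42, 8.29 and 10.4 CPM, against 30.6, 19.4 and 23.5 CPM, and Car12, a membrane carbonic anhydrase, had 11.3, 10.03 and 11.6 CPM, against 19.4, 36.4 and 30.4 CPM. The log2 changes of these 3 were -1.46 ± 0.30, -1.39 ± 0.20 and -1.39 ± 0.19. Etnppl, an astrocyte enzyme that breaks down phosphoethanolamine, had 3.81, 3.71 and 2.26 CPM, against 7.08, 13.4 and 8.49 CPM (log2 change -1.55 ± 0.28). The remaining 3 of the 10 were Fam227b, Xkr4 and Ccdc73, with log2 changes of -1.65 ± 0.32, -1.41 ± 0.30 and -1.40 ± 0.22. The highest adjusted p-value of the 10 falls was that of Zfp871.

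Genes called lower were long. By their annotated span in GENCODE M21 on build mm10, 390 protein-coding genes called lower had a median span of 65.4 kb and 38.2% were over 100 kb. The 1357 called higher had a median of 20.9 kb with 9.43% over 100 kb, and the 13090 not called had a median of 25.1 kb with 15.3% over 100 kb. This grouping was chosen after the values had been seen and is given without a test.

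**Figure D3:**
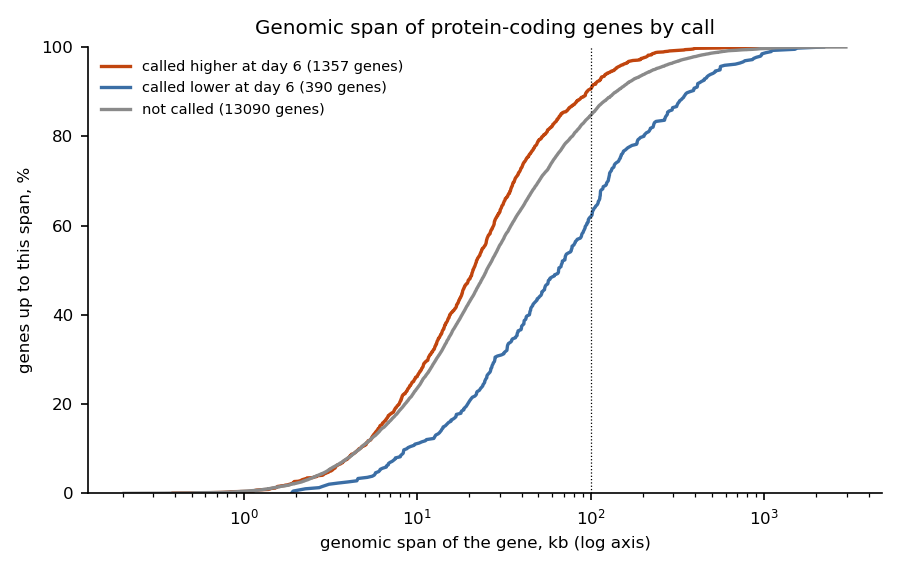
Cumulative share of protein-coding genes, in percent, up to each genomic span in kb (log axis), with the 1357 genes called higher at day 6 in orange, the 390 called lower in blue and the 13090 not called in grey; the dotted line marks 100 kb. The blue curve lies to the right of the others, with a median of 65.4 kb against 20.9 kb for genes called higher and 25.1 kb for genes not called.

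Genes that define microglia at rest in the brain were higher at day 6. Of 12 such genes, 10 were called higher and none lower (median log2 change 1.02, against -0.02 over all genes tested), and the list summed to 652, 1028 and 825 CPM in the day 6 libraries, against 372, 321 and 332 CPM in the controls. Csf1r, the receptor for the survival factors CSF1 and IL-34, had 172, 252 and 207 CPM, against 91.4, 79.3 and 81.7 CPM (log2 change 1.32 ± 0.13, adjusted p = 6.87e-05). Fcrls had 25.9, 38.01 and 33.9 CPM, against 6.49, 5.88 and 6.46 CPM, and the receptor gene Gpr34 had 26.8, 46.02 and 29.97 CPM, against 15.1, 14.5 and 16.5 CPM. The groups did not overlap in any of the 3. Among the 10, the changes were smallest in P2ry12, Sall1 and Tmem119. P2ry12, a receptor for ADP, had 77.3, 84.3 and 69.97 CPM at day 6, against 57.9, 52.1 and 57.01 CPM in the controls (log2 change 0.47 ± 0.12). Sall1 changed by 0.55 ± 0.14 and Tmem119 by 0.79 ± 0.21. Those 3 calls were each lost without day 6 replicate 2, control replicate 2 or control replicate 3, and Sall1 and Tmem119 also without day 6 replicate 3. Selplg, the ligand of P-selectin, was not called at 18.4, 26.6 and 21.6 CPM, against 16.8, 16.6 and 11.3 CPM (adjusted p = 0.0823). The letters GAGGAAGT, a core bound by PU.1, stood in 0 of 7 members with a promoter window, against 3.69% of all genes with one; the windows are described with the lysosomal genes.

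Transcription factors of myeloid cells were higher as well, 12 of 21 (median 1.35). Irf8, needed for the development of microglia and monocytes, had 20.2, 35.99 and 29.2 CPM in the day 6 libraries, against 6.58, 4.43 and 3.54 CPM in the controls (log2 change 2.56 ± 0.26, adjusted p = 9.22e-05). Ikzf1 had 10.8, 17.9 and 12.9 CPM, against 3.69, 4.95 and 3.67 CPM, and Lyl1 had 7.78, 10.4 and 6.95 CPM, against 2.01, 1.41 and 1.12 CPM. Spi1, which encodes the lineage factor PU.1, changed by 2.29 ± 0.30. The 3 day 6 libraries lay above the controls in all 4. Tfec, a relative of the lysosomal regulator TFEB, had no control read and was at least 22.3-fold higher, on a floor of 3 reads over the controls. Mef2c, which neurons also express, had 1132, 1141 and 1116 CPM, against 848, 998 and 1240 CPM, and was not called (adjusted p = 0.608).

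The phagocytic state of microglia and macrophages had 18 of 19 members called higher (median 3.51), and each of the 18 was also called without any 1 library. Clec7a, the receptor dectin-1, had 23.1, 54.4 and 36.2 CPM in the day 6 libraries, against 0.377, 0.483 and 0.167 CPM in the controls (log2 change 6.75 ± 0.44, adjusted p = 1.41e-05). Tyrobp, the signalling adaptor that pairs with TREM2, had 39.8, 86.7 and 58.8 CPM, against 5.86, 5.504 and 4.87 CPM (log2 change 3.51 ± 0.28). Apoe, the lipid carrier, had 4864, 7583 and 6505 CPM, against 1981, 1668 and 1582 CPM (log2 change 1.86 ± 0.15), and the cystatin gene Cst7 had 7.05, 10.2 and 8.24 CPM, against 0.126, 0.409 and 0.042 CPM. Across these genes the order of the day 6 libraries was the same, replicate 1 below replicate 3 below replicate 2, with every control below replicate 1. Lpl, lipoprotein lipase, had 40.01, 101 and 64.96 CPM, against 31.8, 30.9 and 33.9 CPM, and was the 1 member not called (adjusted p = 0.121).

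Genes of lysosomal enzymes were called higher with 1 exception, and most subunits of the proton pump that acidifies lysosomes were not called. Of 24 cathepsins and hydrolases, 23 were called higher and none lower (median 1.77), and the list summed to 6513, 12040 and 9454 CPM in the day 6 libraries, against 3004, 3279 and 3115 CPM in the controls. Ctsd, the aspartic protease cathepsin D, had 722, 1300 and 1062 CPM, against 109, 115 and 109 CPM (log2 change 3.21 ± 0.25, adjusted p = 7.64e-05). Hexa, a subunit of the enzyme that breaks down gangliosides, had 111, 191 and 158 CPM, against 48.97, 49.5 and 43.5 CPM (log2 change 1.70 ± 0.16). Ctsa, the protective protein cathepsin A, had 223, 395 and 317 CPM, against 84.99, 84.1 and 84.3 CPM (log2 change 1.88 ± 0.18), and Ctss, the protease that trims the invariant chain, had 178, 344 and 256 CPM, against 55.04, 49.02 and 48.01 CPM (log2 change 2.35 ± 0.21). The control libraries differed little among themselves and lay below every day 6 library. Ctsk, cathepsin K, was not called at 8.45, 17.9 and 12.1 CPM, against 4.52, 9.11 and 7.16 CPM (adjusted p = 0.064).

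Among 22 genes of the vacuolar ATPase and the lysosomal membrane, 7 were called higher and none lower (median -0.09), and their summed level was 4415, 4532 and 4370 CPM at day 6, against 4270, 4474 and 4541 CPM in the controls. The 7 were Laptm5, Lamp1, Lamp2, Slc11a1, Npc1 and the pump subunits Atp6v0d2 and Atp6v0e. Laptm5, a lysosomal membrane protein of blood-derived cells, had 85.5, 141 and 124 CPM, against 26.01, 24.9 and 23.6 CPM (log2 change 2.23 ± 0.21). Lamp1, a main glycoprotein of the lysosomal membrane, had 362, 539.5 and 451 CPM, against 251, 283 and 259 CPM (log2 change 0.77 ± 0.13), and Slc11a1, the metal transporter of phagosomes, had 6.9, 18.04 and 13.8 CPM, against 1.51, 2.46 and 1.999 CPM (log2 change 2.69 ± 0.41). Both day 6 and control libraries were at similar summed levels, and fitted changes were above 0 in 9 of the 22. The subunit gene Atp6v1b2, common in neurons, had 580.3, 516 and 518 CPM, against 649.7, 632 and 667 CPM (adjusted p = 0.111). The calls of Atp6v0e and Npc1 were lost without day 6 replicate 2 or 3 or control replicate 3, that of Atp6v0e also without control replicate 2.

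Lysosomal genes are known for the CLEAR box, the palindrome TCACGTGA bound by TFEB and its relatives. In RefSeq promoter windows on GRCm38.p6, from 250 bases before to 50 after the start and on both strands, TCACGTGA stood in 2 of 18 hydrolase genes with a window (11.1%; Ctsa and Ctsd) and in 4 of 16 genes of the pump and membrane list (25%; Atp6v0d1, Atp6v0e, Atp6v1a and Mcoln1), against 1.12% of 27025 genes with a window. These are matches of letters and not sites shown to be bound. Of the 6 genes, Ctsa, Ctsd and Atp6v0e were called higher at day 6 and Atp6v0d1, Atp6v1a and Mcoln1 were not called. A promoter from each group is shown for the box they share, as the 250 bases before the start, 5′ to 3′ along the gene, with the box in capitals. Ctsd lies on the minus strand, at chr7:142387828-142388077, with the box beginning 99 bases before the start, and Atp6v1a lies on the minus strand, at chr16:44139260-44139509, with the box 132 bases before the start.
Ctsd: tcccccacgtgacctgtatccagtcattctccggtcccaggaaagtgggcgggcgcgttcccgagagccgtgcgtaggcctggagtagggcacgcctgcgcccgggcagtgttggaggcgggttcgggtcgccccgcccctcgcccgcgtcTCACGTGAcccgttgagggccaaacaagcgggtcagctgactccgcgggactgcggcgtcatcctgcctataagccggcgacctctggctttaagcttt
Atp6v1a: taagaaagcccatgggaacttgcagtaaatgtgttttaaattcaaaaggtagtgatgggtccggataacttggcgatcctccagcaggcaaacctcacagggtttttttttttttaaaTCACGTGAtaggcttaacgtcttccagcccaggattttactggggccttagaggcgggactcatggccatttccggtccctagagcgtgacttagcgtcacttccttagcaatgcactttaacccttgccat

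**Figure D4:**
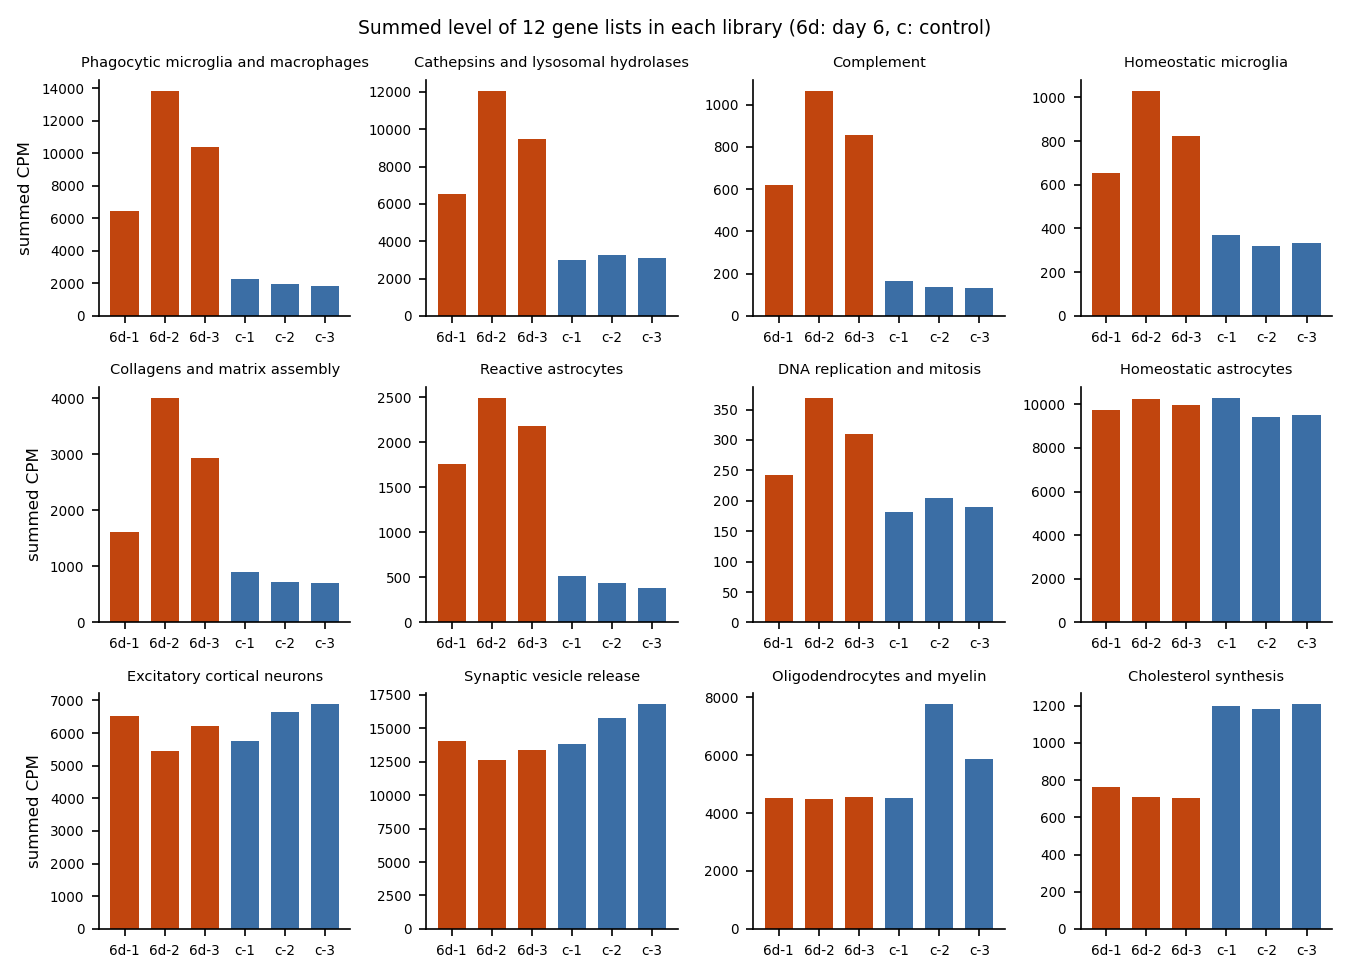
Summed TMM-scaled CPM of 12 gene lists in each library, with the 3 day 6 libraries (6d) in orange and the 3 controls (c) in blue, on axes that start at 0. Phagocytic, hydrolase, complement, matrix and reactive astrocyte lists stand above the controls in all 3 day 6 libraries with replicate 2 the highest, cholesterol synthesis stands below them, and neuronal and homeostatic astrocyte lists overlap the controls.

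Receptors that bind antibody and the kinases behind them had 17 of 18 members called higher (median 2.25). Fcgr3, an activating Fc receptor, had 20.3, 39.1 and 30.6 CPM in the day 6 libraries, against 6.66, 6.29 and 4.96 CPM in the controls, and Fcgr2b, the inhibitory one, had 22.2, 43.9 and 33.04 CPM, against 5.49, 3.57 and 3.33 CPM. Both rose (log2 changes 2.33 ± 0.22 and 3.00 ± 0.29), so that activating and inhibitory receptors moved in the same direction. Ptpn6, the phosphatase SHP-1 that works downstream of inhibitory receptors, had 12.98, 25 and 16.2 CPM, against 2.72, 2.86 and 2.79 CPM (log2 change 2.69 ± 0.23, adjusted p = 1.59e-05). Fcgr1, the high-affinity receptor, changed by 1.95 ± 0.22. Hcst was not called, at 0.412, 0.366 and 0.727 CPM against 0.042, 0 and 0.125 CPM (adjusted p = 0.0547). The genes of this family have near copies and reads may be shared between them.

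Genes of antigen presentation on MHC class I rose, with 11 of 12 members called higher (median 1.79). B2m, the light chain of class I molecules, had 139.5, 227 and 186 CPM in the day 6 libraries, against 48.6, 52.9 and 50.7 CPM in the controls (log2 change 1.86 ± 0.15, adjusted p = 1.41e-05). H2-T23, a class Ib molecule, had 16.9, 18 and 12.6 CPM, against 6.54, 6.84 and 5.79 CPM, Psmb9, a subunit of the immunoproteasome, had 3.04, 2.702 and 3.56 CPM, against 0.628, 0.483 and 0.583 CPM, and Nlrc5, the transactivator of class I genes, had 2.47, 3.11 and 3.31 CPM, against 0.377, 0.632 and 0.25 CPM. Their log2 changes were 1.31 ± 0.18, 2.44 ± 0.34 and 2.78 ± 0.41, with no overlap of the groups. Psmb10, another immunoproteasome subunit, was not called at 30.4, 28.2 and 26.3 CPM, against 29.7, 34.4 and 34.9 CPM (adjusted p = 0.268).

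MHC class II, which presents antigen to helper T cells, had low levels. Of 7 genes tested, 5 were called higher (median 1.95). Cd74, the invariant chain, had 3.35, 8.43 and 7.19 CPM at day 6, against 1.42, 1.56 and 2.29 CPM in the controls (log2 change 1.84 ± 0.48, adjusted p = 0.0338). H2-Ab1 had 0.721, 1.33 and 1.78 CPM, against 0.168, 0 and 0.291 CPM, and the log2 changes of H2-Eb1 and H2-Ob were 1.95 ± 0.50 and 2.06 ± 0.51. H2-Aa had no control read and was at least 8.83-fold higher, on a floor of 3 reads over the controls. None of these calls held in all of the fits without 1 library: the number called was 0 without day 6 replicate 2, 2 without day 6 replicate 3, 3 without control replicate 1 and 1 without control replicate 2 or 3. H2-DMa, which loads peptides, had 14.7, 12.3 and 12.3 CPM, against 9.51, 10.2 and 10.9 CPM, and was not called.

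Complement genes had 10 of 15 members called higher (median 2.69), each of them also without any 1 library. The list summed to 619, 1064 and 857 CPM in the day 6 libraries, against 165, 136 and 133 CPM in the controls. C1qa, a chain of the recognition molecule C1q, had 167, 302 and 238 CPM, against 34.6, 33.6 and 30.2 CPM, and C1qb had 117, 197 and 157 CPM, against 16.6, 20.2 and 19.7 CPM. These 2 rose by similar amounts (log2 changes 2.84 ± 0.22 and 3.06 ± 0.22). C3, the component on which the pathways converge, had 7.93, 10.7 and 9.37 CPM, against 0.293, 0.149 and 0.208 CPM (log2 change 5.40 ± 0.37, adjusted p = 8.14e-06), and C4b had 81, 97.5 and 96.8 CPM, against 19.9, 11.9 and 10.9 CPM. The day 6 libraries lay closer together in C3 and C4b than in the C1q chains.

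Toll-like receptors and their adaptors had 15 of 20 members called higher (median 1.47). Tlr7, the endosomal sensor of single-stranded RNA, had 12.5, 20.9 and 15.5 CPM in the day 6 libraries, against 3.48, 2.42 and 1.999 CPM in the controls (log2 change 2.63 ± 0.24, adjusted p = 2.67e-05), and Unc93b1, which carries such receptors to endosomes, had 35.8, 61.8 and 54.3 CPM, against 10.1, 9.52 and 9.24 CPM (log2 change 2.40 ± 0.22). Cd180, a relative of the receptor for lipopolysaccharide, had 14.5, 38.7 and 25.1 CPM, against 1.17, 1.97 and 2.25 CPM, and Tlr1 had 11.2, 13.1 and 14.1 CPM, against 4.82, 4.87 and 5.62 CPM. No day 6 library overlapped a control in these 4 genes. Tlr3, which astrocytes and neurons express too, was not called at 15.1, 22.4 and 18.99 CPM, against 15.5, 10.9 and 15.7 CPM (adjusted p = 0.152).

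Chemokines, which guide leukocytes, had 12 of 16 tested members called higher (median 3.04, or 3.02 with genes that lack control reads at their bound). Cxcl16, a membrane-bound chemokine, had 7.67, 13.9 and 8.32 CPM in the day 6 libraries, against 1.84, 1.08 and 1.54 CPM in the controls (log2 change 2.75 ± 0.30, adjusted p = 9.20e-05). Ccl3 had 2.73, 8.47 and 3.72 CPM, against 0, 0.26 and 0.083 CPM (log2 change 5.32 ± 0.77). Cxcl10, induced by interferon, had 0.721, 0.87 and 0.808 CPM, against 0.126, 0 and 0 CPM, a ratio of 19.98 on 3 control reads (6.40 to 101, adjusted p = 0.00205), and Ccl12 had 0.36, 0.687 and 0.727 CPM, against 0.126, 0 and 0.042 CPM. Most of these levels were low, and the count of called chemokines was 7 without day 6 replicate 2, control replicate 2 or control replicate 3, 6 with limma voom and 6 in the fit of the 6 libraries alone. Cx3cl1, the neuronal ligand of the microglial receptor CX3CR1, had 613, 479 and 603 CPM, against 525, 659.6 and 714 CPM, and was not called (adjusted p = 0.495).

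Among chemokine receptors 5 of 8 were called higher (median 1.70). Cxcr4, the receptor of CXCL12, had 5.97, 14.5 and 9.37 CPM in the day 6 libraries, against 1.97, 1.26 and 1.25 CPM in the controls (log2 change 2.74 ± 0.35, adjusted p = 3.41e-04). Ccr2, which draws monocytes from the blood, had 2.68, 4.95 and 3.07 CPM, against 0.922, 0.855 and 0.333 CPM (log2 change 2.34 ± 0.36). In both the groups were apart. The number called was 3 without day 6 replicate 2 or control replicate 2, and the calls lost were those of Cxcr2, with 1 control read and a ratio of 20.9 (3.22 to 880.3), and Ccr1. Ackr1, a scavenging receptor of venules, was not called at 18.02, 14.01 and 17.1 CPM, against 22.1, 23.2 and 19.2 CPM (adjusted p = 0.103).

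Of 26 interleukins, members of the TNF family and their receptors, 13 were called higher and none lower (median 1.42). The 9 receptors among them were Il1r1, Il6ra, Osmr, Il10ra, Il4ra, Il13ra1, Tnfrsf1a, Tnfrsf1b and Fas. Osmr, the receptor of oncostatin M, had 19.1, 30.1 and 24.1 CPM in the day 6 libraries, against 5.07, 4.05 and 4.62 CPM in the controls (log2 change 2.42 ± 0.18, adjusted p = 1.22e-05). Tnfrsf1b, the second receptor of TNF, had 12.2, 23.9 and 18.1 CPM, against 2.56, 2.68 and 3.62 CPM (log2 change 2.61 ± 0.25), and Il10ra, a receptor chain for IL-10, had 12.7, 22.02 and 20.4 CPM, against 5.28, 6.54 and 5.87 CPM. Il1a, a cytokine released from microglia, had 4.17, 6.73 and 5.41 CPM, against 1.299, 1.04 and 0.999 CPM (log2 change 2.29 ± 0.27). The groups did not overlap. Tnf itself had no control read and was at least 14.9-fold higher, and Osm, the ligand of OSMR, was higher by a ratio of 39.96 on 3 control reads (13.2 to 198). Il34, the neuronal ligand of CSF1R, was not called at 43.6, 31.7 and 39.7 CPM, against 37.9, 46.6 and 39.8 CPM (adjusted p = 0.648).

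Genes induced by interferon had 14 of 22 members called higher (median 1.23), and 9 without day 6 replicate 2. Ifi44 had 4.995, 10.5 and 7.19 CPM in the day 6 libraries, against 1.005, 1.23 and 1.33 CPM in the controls (log2 change 2.67 ± 0.28, adjusted p = 6.87e-05). Ifitm3, which restricts entry of viruses, had 17.04, 28.9 and 20.9 CPM, against 6.33, 7.401 and 5.66 CPM, and Irf7, the transcription factor that amplifies interferon, had 4.33, 4.396 and 7.43 CPM, against 1.51, 1.56 and 0.874 CPM. Gbp3, a guanylate-binding protein, changed by 1.27 ± 0.21. Each day 6 library lay above each control in these 4. Stat2, a part of the factor that drives this set, had 33.3, 41.4 and 39.8 CPM, against 34.9, 36.97 and 38.4 CPM, and was not called (adjusted p = 0.826). The core letters of the interferon-stimulated response element, GAAANNGAA, stood on either strand in 11 of 15 members with a promoter window (73.3%), against 9.76% of all genes with one. Of the members with a match, Ifit3, Ifi44, Oas1a, Bst2, Ifitm3 and Gbp3 were called higher and Ifit1, Isg15, Stat2, Rsad2 and Gbp2 were not called. The members with a window and no match, Ifit2, Oasl2, Irf7 and Xaf1, were all called higher. The calls of Oas1a, Bst2 and Ifit2 were lost without day 6 replicate 2 or control replicate 2. Ifit1 and Isg15, not called, have 3 matches each, as has Ifit3. Ifit3 is shown as a called member, at 4.07, 5.59 and 5.33 CPM in the day 6 libraries, against 2.22, 1.15 and 2.08 CPM in the controls (log2 change 1.46 ± 0.29). The 250 bases before its start lie on the plus strand at chr19:34583279-34583528, with matches 155, 121 and 102 bases before the start in capitals. All 3 are read on the strand opposite to the gene, so that the capitals show the complement of the element.
Ifit3: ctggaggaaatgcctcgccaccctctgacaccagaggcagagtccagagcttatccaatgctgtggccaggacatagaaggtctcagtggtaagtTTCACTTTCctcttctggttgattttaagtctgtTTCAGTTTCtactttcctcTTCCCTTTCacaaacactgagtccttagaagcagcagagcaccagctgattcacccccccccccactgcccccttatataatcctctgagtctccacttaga

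Among the lists of other blood leukocytes, only the neutrophil list had called members, and 1 of these calls held without any 1 library. Of 6 neutrophil genes tested, 3 were called higher (median 1.56): Csf3r, Mmp8 and S100a8. Csf3r, the receptor of the growth factor G-CSF, had 27.4, 40.2 and 35.4 CPM in the day 6 libraries, against 8.84, 6.32 and 7.08 CPM in the controls (log2 change 2.21 ± 0.20, adjusted p = 3.68e-05). In the controls S100a8 had 0.377, 0.037 and 0.167 CPM, far below Csf3r. The calls of Mmp8 and S100a8 were both lost without control replicate 2 or 3, which left 1 called. That of Mmp8 was also lost without day 6 replicate 2 or 3 and that of S100a8 without day 6 replicate 1. With limma voom Mmp8 and S100a8 were not called (adjusted p = 0.136 and 0.0904). S100a9, the partner of S100a8, had 2.11, 0.504 and 0.727 CPM, against 0.963, 0.483 and 0.375 CPM, and was not called. At day 2 S100a9 had 29.09, 29.88 and 24.05 CPM, while Csf3r had 29.42, 46.9 and 37.1 CPM. Ltf and Ngp, whose products are stored in neutrophil granules, were tested and not called (adjusted p = 0.928 and 0.848), and Ly6g, Camp, Elane and Mpo fell below the filter. Of 8 genes of T and NK cells (median 0.06) and 3 of B and plasma cells (median 0.30) tested, edgeR called none, none had an unadjusted p below 0.05, and DESeq2 and limma voom called none, while 1 T and NK cell gene was called lower without control replicate 1. Trbc2, a constant region of the T cell receptor, had 5.201, 3.43 and 4.69 CPM, against 2.68, 9.71 and 7.16 CPM, and Ighm, the heavy chain of IgM, had 14.6, 19.4 and 15.03 CPM, against 8.797, 14.1 and 17.03 CPM. Cd8a, Trac and Ms4a1 fell below the filter.

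Genes of reactive astrocytes rose, with 17 of 20 called higher (median 1.81). Gfap, the intermediate filament of astrocytes, had 1199, 1523 and 1402 CPM in the day 6 libraries, against 268, 196 and 147 CPM in the controls (log2 change 2.75 ± 0.21, adjusted p = 3.98e-05). Cd109, a co-receptor of TGF-beta, had 5.05, 7.74 and 6.38 CPM, against 1.22, 0.855 and 1.17 CPM, and Ptx3, a secreted pentraxin, had 2.52, 4.08 and 4.44 CPM, against 0.251, 0.074 and 0 CPM. S1pr3, a receptor of sphingosine-1-phosphate, had 29.9, 31.6 and 32.5 CPM, against 7.88, 8.74 and 10.7 CPM (log2 change 1.78 ± 0.18). The 3 day 6 libraries lay close together in Gfap and S1pr3, replicate 1 included. Synm, the filament protein synemin, was not called at 57.9, 56.5 and 57.7 CPM, against 58.9, 66.05 and 65.1 CPM (adjusted p = 0.379).

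Genes of the everyday work of astrocytes were mostly not called. Of 20, Aqp4 was called higher and Etnppl and Slc4a4 lower (median 0.02). Aqp4, the water channel of the endfeet, had 191, 273 and 222 CPM at day 6, against 167, 117 and 114 CPM in the controls (log2 change 0.79 ± 0.16, adjusted p = 0.00633). Slc4a4, a bicarbonate transporter, had 130.5, 129 and 126 CPM, against 187, 163 and 178 CPM (log2 change -0.46 ± 0.09, adjusted p = 0.00601). Slc1a2, the main glutamate transporter, had 3712, 3870 and 3770 CPM, against 3988, 3586 and 3939 CPM, and was not called (adjusted p = 0.935). Without control replicate 1 the number called higher was 5. Among 15 proteoglycans of brain matrix and the perineuronal net, 2 were called higher (13.3%, near the background; median 0.11). Cspg4, the proteoglycan NG2 of glial precursors and pericytes, had 24.9, 35.8 and 36.3 CPM, against 18.5, 15.5 and 12.2 CPM (log2 change 1.07 ± 0.20). Ncan, neurocan, had 239.8, 265 and 266 CPM, against 194, 195 and 204 CPM, a call lost without day 6 replicate 2 or 3 or control replicate 2, while 4 were called higher without day 6 replicate 1 and 1 lower without control replicate 1. Cspg5 was not called at 410.4, 347 and 384 CPM, against 387, 349 and 322 CPM.

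Myelin genes had no member called by edgeR among 15 (median -0.44), with 4 at an unadjusted p below 0.05, 2 called lower by DESeq2 and 1 by limma voom. The list summed to 4526, 4496 and 4547 CPM in the day 6 libraries, against 4519, 7756 and 5849 CPM in the controls, and Mbp, the myelin basic protein, had 1912, 1778 and 1877 CPM, against 1697, 2890 and 2233 CPM (adjusted p = 0.562). Of the groups compared, the controls were the more spread, and their replicate 1 stood at the level of the day 6 libraries. The day 2 libraries, which share the estimate of the spread, summed to 3782, 4599 and 7556 CPM. In this list 1 member was called lower without control replicate 1 or without day 6 replicate 1. Of 15 genes of oligodendrocyte precursors, 3 were called higher (20%; median 0.15). Matn4, a matrix protein of precursors, had 20.9, 26.6 and 23.7 CPM, against 12.9, 14.2 and 11.4 CPM (log2 change 0.88 ± 0.14, adjusted p = 0.00142). Gpr17, a receptor of precursors about to differentiate, had 72.2, 83.9 and 79.9 CPM, against 61.9, 51.4 and 42.8 CPM (log2 change 0.60 ± 0.12). Itpr2 changed by 0.50 ± 0.13, a call lost without day 6 replicate 2 or 3 or control replicate 2 or 3. Bcas1, a marker of newly forming oligodendrocytes, had 142, 155 and 148 CPM, against 102, 172 and 126 CPM, and was not called (adjusted p = 0.829).

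Vessel genes were called in part, with no member lower. Of 20 genes of endothelial identity and the blood-brain barrier, 9 were called higher (median 0.45). Cldn5, the tight junction protein claudin-5, had 49.6, 44.8 and 42.8 CPM in the day 6 libraries, against 26.7, 28.5 and 27.8 CPM in the controls (log2 change 0.73 ± 0.16, adjusted p = 0.0113), and Itm2a had 74.8, 79.8 and 71.02 CPM, against 50.6, 53.9 and 51.8 CPM (log2 change 0.53 ± 0.09). These 2 calls also held without any 1 library. Tie1, a receptor of the angiopoietin system, had 12.7, 20.01 and 19.1 CPM, against 8.92, 6.99 and 7.995 CPM, and Abcb1a, the efflux pump P-glycoprotein, had 31.6, 40.8 and 32.9 CPM, against 22.1, 23.9 and 26.4 CPM. Both of those calls were lost without day 6 replicate 2, Tie1 also without control replicate 2. The number called was 2 without day 6 replicate 2, 4 without day 6 replicate 3, 3 without control replicate 2 and 4 without control replicate 3. Tjp1, the junction protein ZO-1, was not called at 139, 167 and 148 CPM, against 128, 109.7 and 129 CPM (adjusted p = 0.0634).

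Genes of sprouting or activated endothelium had 7 of 20 members called higher (median 0.85). Icam1, the adhesion molecule on which leukocytes arrest, had 7.16, 9.07 and 11.2 CPM in the day 6 libraries, against 1.299, 0.93 and 1.999 CPM in the controls (log2 change 2.69 ± 0.31, adjusted p = 1.32e-04). Aplnr, the apelin receptor of growing veins, had 6.23, 7.19 and 9.53 CPM, against 1.42, 0.818 and 1.499 CPM (log2 change 2.61 ± 0.33), and Nid2, a basement membrane protein, had 7.42, 11.3 and 10.5 CPM, against 2.81, 2.86 and 2.87 CPM. Vwf, the clotting factor stored in endothelium, had 16.9, 16.5 and 18.8 CPM, against 11.1, 6.73 and 9.66 CPM. All day 6 values were above all control values here. Vegfa, the main growth factor of vessels, was not called at 83.5, 96.8 and 94.5 CPM, against 101, 94.5 and 104 CPM (adjusted p = 0.469). Among 13 genes of mural cells, 3 were called higher (median 0.56). Anpep, an aminopeptidase of pericytes that macrophages and fibroblasts also carry, had 19.2, 48.9 and 37.3 CPM, against 7.58, 4.17 and 4.08 CPM (log2 change 2.74 ± 0.37, adjusted p = 0.00157). Pdgfrb, the receptor of PDGF-B, changed by 0.66 ± 0.17 and Rgs5 by 0.56 ± 0.16. These calls were lost without day 6 replicate 2 or 3 or control replicate 2 or 3, which left 1 called. The call of Rgs5 was also lost without control replicate 1. Without day 6 replicate 1, 5 were called. Vtn had 74.8, 59.6 and 70.05 CPM, against 66.2, 56.4 and 48.6 CPM, and was not called.

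Collagens and the enzymes that assemble matrix had 23 of 29 members called higher and none lower (median 2.01), and the list summed to 1611, 4005 and 2936 CPM in the day 6 libraries, against 891, 723 and 711 CPM in the controls. Col6a1, a chain of the microfibrillar collagen VI, had 94.8, 129 and 115 CPM, against 51.7, 67.4 and 68.9 CPM (log2 change 0.85 ± 0.14, adjusted p = 0.00135), and Sparc, a chaperone of collagen, had 386, 637 and 534 CPM, against 261, 209 and 185 CPM (log2 change 1.25 ± 0.19). Tgfbi, induced by TGF-beta, had 7.67, 18.2 and 15.8 CPM, against 2.68, 2.75 and 3.42 CPM, and Nid1, nidogen of basement membranes, had 27.5, 63.9 and 49.7 CPM, against 12.3, 11.3 and 10.4 CPM. The groups were apart in these 4. Col3a1, a fibrillar collagen of scars, had 93.1, 543 and 322 CPM, against 8.88, 4.72 and 7.54 CPM (log2 change 5.51 ± 0.82), and its call was lost without control replicate 3 (adjusted p = 0.0503). The number called was 13 without control replicate 2 or 3. Col5a1 was not called at 44.5, 74.04 and 61 CPM, against 44.6, 22.9 and 23.7 CPM (adjusted p = 0.101). Genes that mark the fibroblasts of meninges and vessels had 2 of 14 members called higher (14.3%; median 0.53). Lum, the proteoglycan lumican, had 8.34, 28.7 and 14.6 CPM, against 2.39, 1.34 and 1.87 CPM (log2 change 3.21 ± 0.48, adjusted p = 0.00257). Pdgfrl changed by 2.00 ± 0.48, a call lost without day 6 replicate 2 or control replicate 3, while 4 were called without control replicate 1. Ptgds, an enzyme of meninges and oligodendrocytes, had 648, 456 and 548 CPM, against 962, 524 and 515 CPM, and was not called.

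Metalloproteinases and their inhibitors had 9 of 23 members called higher (median 0.87), and 5 without control replicate 2. Beside Mmp12 and Mmp13, Mmp2, the gelatinase A, had 8.24, 12.4 and 13.5 CPM in the day 6 libraries, against 2.77, 2.603 and 2.83 CPM in the controls (log2 change 2.05 ± 0.25, adjusted p = 2.02e-04). Mmp3, stromelysin, had no control read and was at least 307-fold higher, at 2.27, 21.4 and 12.1 CPM at day 6. Adam8, a sheddase of leukocytes, had 21.2, 54.9 and 40.5 CPM, against 6.45, 5.69 and 5.12 CPM (log2 change 2.75 ± 0.36). Timp2, an inhibitor, had 317, 411 and 388 CPM, against 375, 227 and 244 CPM, and was not called (adjusted p = 0.361), and without control replicate 1 there was 1 member called lower. Of 26 genes of TGF-beta and BMP signalling, 7 were called higher (median 0.27). Tgfb1, the ligand made by microglia and macrophages, had 16.3, 27.1 and 24.4 CPM, against 6.54, 4.54 and 4.08 CPM (log2 change 2.16 ± 0.27, adjusted p = 4.76e-04), and Nrros, which anchors latent TGF-beta on microglia, had 11.9, 20.01 and 16.8 CPM, against 6.16, 4.46 and 5.54 CPM. The receptor gene Tgfbr2 had 36.6, 76.97 and 65.4 CPM, against 16.7, 16.8 and 17.03 CPM (log2 change 1.82 ± 0.24), and Tgfbr1 had 53.8, 75.9 and 62.9 CPM, against 40.8, 35.9 and 37.4 CPM. Ligand, anchor and both receptors thus stood above the controls in every day 6 library. Skil, a repressor of the pathway, was not called at 88.3, 93.8 and 80.2 CPM, against 99.3, 111 and 127 CPM (adjusted p = 0.0872), and 1 member of the list was called lower without control replicate 1.

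Lists of neuronal genes had few or no members called. Markers of excitatory cortical neurons had 0 of 11 called (median -0.05), with 1 at an unadjusted p below 0.05 and 1 called lower by DESeq2. Camk2a, a kinase of excitatory synapses, had 2916, 2681 and 2929 CPM in the day 6 libraries, against 2957, 3135 and 3247 CPM in the controls (adjusted p = 0.439). Markers of inhibitory neurons had 0 of 10 called (median -0.21), with 1 at an unadjusted p below 0.05 and 1 called lower by DESeq2. Neuropeptide genes had 0 of 13 called (median -0.39), with 3 at an unadjusted p below 0.05 and 2 called lower by DESeq2, and Cck had 299, 217 and 263 CPM, against 279, 352 and 305 CPM. The striatal genes had 0 of 7 called (median -2.23), with 1 at an unadjusted p below 0.05 and 1 called lower by DESeq2. limma voom called none of these 4 lists. In the excitatory list 2 members were called higher without control replicate 3, and the inhibitory and peptide lists each had 1 called lower without day 6 replicate 1, the peptide list also without control replicate 3.

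Genes of synapses and channels were called in few cases, all lower. For synaptic vesicle release 2 of 20 were called lower and fitted changes were above 0 in 2 (median -0.20). Cplx2, a complexin that clamps fusion, had 923, 831 and 942 CPM in the day 6 libraries, against 1095, 1198 and 1260 CPM in the controls (log2 change -0.40 ± 0.10, adjusted p = 0.0227), and Rims1, a scaffold of the release site, had 281, 271 and 269 CPM, against 323, 351 and 415 CPM (log2 change -0.41 ± 0.11). Neither was called without day 6 replicate 2 or 3 or control replicate 2 or 3, Rims1 also not without day 6 replicate 1, and 4 were called without control replicate 1. Snap25 was not called at 2914, 2697 and 2665 CPM, against 2351, 3475 and 3770 CPM. Among 19 genes of glutamate receptors, Gria1, an AMPA receptor subunit, had 230.3, 196 and 217 CPM, against 368, 312 and 253 CPM (median of the list -0.23; log2 change -0.54 ± 0.15, adjusted p = 0.0329), a call lost without day 6 replicate 2 or 3 or control replicate 1 or 2. Camk2b had 821, 709 and 801 CPM, against 795, 926 and 929 CPM, and was not called. Of 18 genes of GABA receptors, 2 were called lower and none had a fitted change above 0 (median -0.25). Gabrb2, a subunit of most cortical GABA-A receptors, had 68.6, 45.4 and 61.2 CPM, against 122, 109 and 163 CPM (log2 change -1.17 ± 0.25, adjusted p = 0.0171), and Gabra5 changed by -0.93 ± 0.23. The groups were apart in both. Gabbr1 was not called at 752, 647 and 706 CPM, against 692, 751 and 806 CPM. The number called in the GABA list was 0 without day 6 replicate 2 or 3 and 1 without day 6 replicate 1 or any control.

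Potassium channels had 3 of 26 called lower (median -0.20). Kcnma1, the large-conductance channel opened by calcium, had 306, 267 and 286 CPM in the day 6 libraries, against 434, 417 and 441 CPM in the controls (log2 change -0.59 ± 0.12, adjusted p = 0.00476). That call held without any 1 library. Kcna1, a channel of axons, had 46.1, 40.9 and 45.3 CPM, against 67.2, 79.6 and 104 CPM (log2 change -0.92 ± 0.23), and Kcna2 changed by -0.50 ± 0.15. Both calls were lost without any 1 day 6 library or control replicate 2 or 3, which left 1 called. Of 24 sodium, calcium and HCN channel genes, Scn3a, the sodium channel of immature neurons, was called lower (median -0.32), at 35.2, 38.6 and 37.4 CPM, against 53.2, 45.2 and 49.6 CPM (log2 change -0.41 ± 0.11, adjusted p = 0.0324). It was not called without any 1 day 6 library, control replicate 1 or control replicate 3, and the number called was 2 without control replicate 1. Scn8a had 374, 364 and 410.2 CPM, against 350.2, 416 and 471 CPM, and was not called. Immediate early genes, which report recent neuronal firing, had 3 of 16 called lower (median -0.35). Arc, which acts at the postsynapse, had 148, 93 and 135 CPM, against 218, 164 and 239 CPM (log2 change -0.73 ± 0.19), Dusp1 changed by -0.63 ± 0.16 and Nr4a1 by -0.62 ± 0.16, with adjusted p-values of 0.0347, 0.024 and 0.0264. Without day 6 replicate 2 or 3 or control replicate 1 or 3, none of the list was called lower, and 1 was called higher without control replicate 1. Egr1 was not called at 356, 292 and 337 CPM, against 269.8, 244 and 375 CPM.

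Genes that guide axons had 3 of 29 members called lower and 1 higher (median -0.20). Sema5a, a transmembrane semaphorin, had 35.9, 38.1 and 39.7 CPM in the day 6 libraries, against 50.4, 55.9 and 52.3 CPM in the controls (log2 change -0.48 ± 0.09, adjusted p = 0.00371), and this call held without any 1 library. Dcc, the netrin receptor, had 2.27, 0.412 and 1.86 CPM, against 5.95, 6.29 and 5.91 CPM (log2 change -2.03 ± 0.54), and Efnb3 changed by -0.65 ± 0.17. Plxnd1, a semaphorin receptor that endothelium uses, had 154, 154 and 159 CPM, against 125, 91.97 and 129 CPM (log2 change 0.43 ± 0.13). The calls of Dcc, Efnb3 and Plxnd1 were each lost without day 6 replicate 2 or 3 or control replicate 2, those of Dcc and Efnb3 also without control replicate 1, that of Dcc without control replicate 3 and that of Plxnd1 without day 6 replicate 1. Without control replicate 1, 3 members were called higher. Epha4 had 210.4, 181 and 198 CPM, against 199, 218 and 237 CPM, and was not called. Of 14 genes of axon growth and injury, 2 were called higher and 2 lower (median -0.02). Atf3, a transcription factor of injured neurons and of stressed macrophages, had 5.15, 20.2 and 11.8 CPM, against 0.586, 0.074 and 0.916 CPM (log2 change 4.58 ± 0.77, adjusted p = 0.00758). Tubb6, a tubulin, changed by 1.88 ± 0.37, not called without control replicate 3. Stmn2, a regulator of axonal microtubules, had 322, 289 and 303 CPM, against 378, 389 and 396 CPM (log2 change -0.35 ± 0.10), and Klf7 changed by -0.61 ± 0.14. Neither of these was called without day 6 replicate 2 or 3 or control replicate 3, and Stmn2 was not called without control replicate 1 or 2 either. Basp1 was not called at 767, 709 and 710.5 CPM, against 765, 739 and 713 CPM.

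Genes of cholesterol synthesis were lower from early to late steps of the pathway. Of 22 genes, 16 were called lower and none higher (median -0.68), between 14 and 16 in the fits without 1 library, and the list summed to 760.4, 707 and 703 CPM in the day 6 libraries, against 1200, 1185 and 1208 CPM in the controls. Hmgcs1, which makes HMG-CoA at the start of the pathway, had 149, 146 and 144 CPM, against 268, 273 and 260.4 CPM (log2 change -0.87 ± 0.11, adjusted p = 1.99e-04). Msmo1, which removes methyl groups from sterols late in the pathway, had 47.7, 43.1 and 42.01 CPM, against 86.5, 85.2 and 84.6 CPM (log2 change -0.95 ± 0.09), and Cyp51 had 38.7, 40.8 and 40.6 CPM, against 70.8, 69.1 and 69.4 CPM. No day 6 library overlapped a control in these 3 genes. Insig1, which retains the sterol sensor in the endoplasmic reticulum, had 27.5, 32.6 and 26.9 CPM, against 63.5, 57.2 and 60.96 CPM (log2 change -1.06 ± 0.11). The 3 day 6 libraries differed less among themselves here than in the immune lists. Replicate 1 was the lowest of them in Cyp51, and replicate 2 was the nearest to the controls in Insig1. Pmvk, phosphomevalonate kinase, had 30.1, 24.7 and 21.6 CPM, against 31.3, 35.5 and 30.6 CPM, and was not called (adjusted p = 0.111).

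The pathway is switched on by SREBP2, which binds sterol regulatory elements. The letters TCACNCCAC of this element stood on either strand in 1 of 14 genes of the list with a promoter window (7.14%), against 1.44% of 27025 genes. The match is in Hmgcs1, on the plus strand at chr13:119690101-119690350 of GRCm38.p6, 137 bases before the start, and is shown in capitals within the 250 bases before the start from RefSeq. Sites that differ from these letters, or that lie outside the window, were not searched.
Hmgcs1: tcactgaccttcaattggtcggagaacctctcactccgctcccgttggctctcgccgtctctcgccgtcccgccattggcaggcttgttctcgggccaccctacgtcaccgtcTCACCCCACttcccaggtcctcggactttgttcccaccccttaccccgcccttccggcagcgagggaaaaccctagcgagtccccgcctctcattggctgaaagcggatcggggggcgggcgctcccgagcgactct

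Genes of lipid export and storage moved the other way. Of 19 genes of cholesterol export and fatty acid handling, 11 were called higher and 2 lower (median 0.74). Abca1, the pump that loads cholesterol onto lipoproteins, had 175, 301 and 226 CPM in the day 6 libraries, against 51.02, 45.7 and 47.8 CPM in the controls (log2 change 2.28 ± 0.17, adjusted p = 1.53e-05), and its partner Abcg1 had 75.7, 103 and 103 CPM, against 51.1, 54.9 and 57.9 CPM (log2 change 0.78 ± 0.12). Apoc1, an apolipoprotein, had 6.13, 6.73 and 7.11 CPM, against 0.461, 0.149 and 0.333 CPM, and Apod had 139, 178 and 151 CPM, against 98.02, 93.98 and 85.4 CPM. Pump and carrier genes were above the controls in all 3 day 6 libraries. Plin2, which coats lipid droplets, had 63.03, 185 and 133 CPM, against 6.62, 7.103 and 5.79 CPM (log2 change 4.28 ± 0.47), and Soat1, which esterifies cholesterol for storage, changed by 1.34 ± 0.21. The genes called lower were the desaturases Scd1, at 95.9, 102 and 96.2 CPM, against 159, 189 and 175 CPM (log2 change -0.83 ± 0.12), and Scd2 (log2 change -0.34 ± 0.10), a call lost without any 1 of the 6 libraries. Fasn, the fatty acid synthase, was not called at 218, 212 and 226 CPM, against 227, 229.7 and 242 CPM (adjusted p = 0.637).

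**Figure D5:**
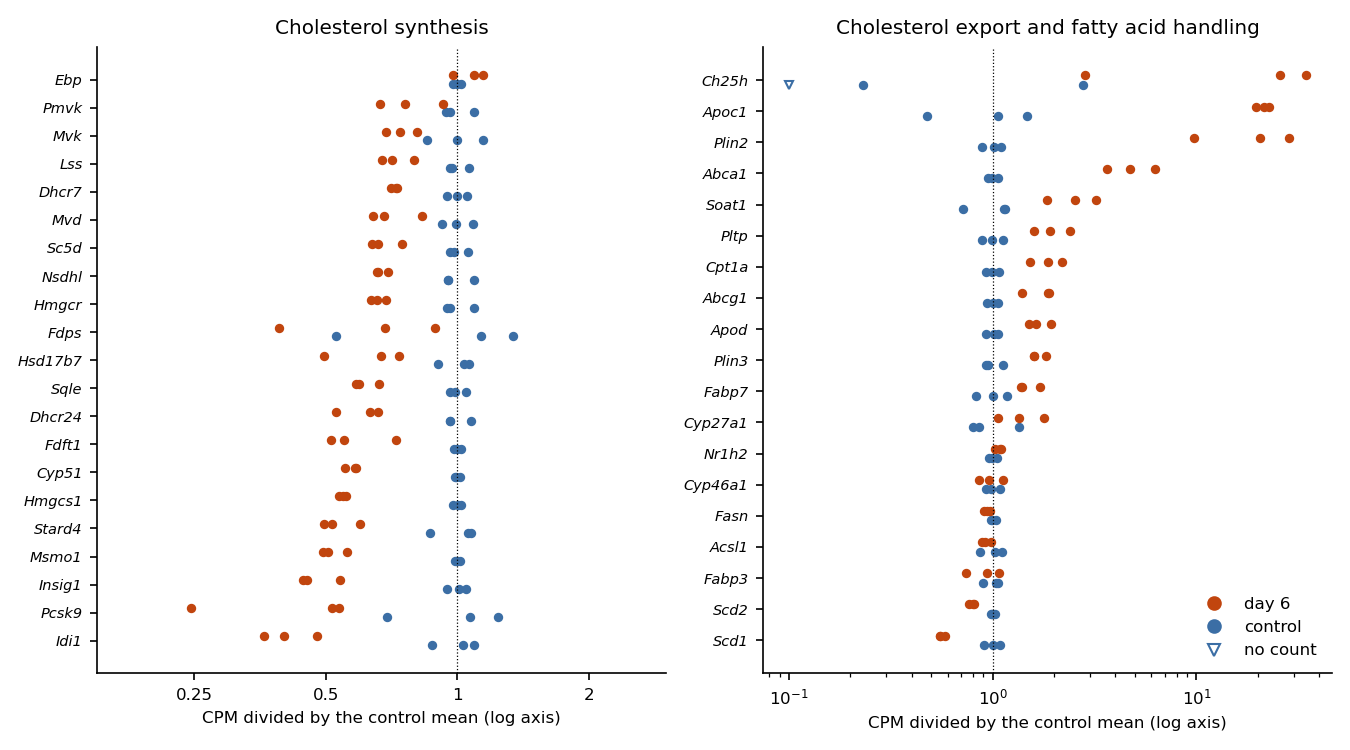
Level of each gene in each library divided by the mean of the controls (log axis), for genes of cholesterol synthesis and of cholesterol export and fatty acid handling, with orange points for day 6 and blue points for controls; the open triangle marks a control with no count. In the synthesis list the fitted change was below 0 for all genes shown except Ebp, with 16 of the 22 tested called lower, and in the export list 11 of the 19 tested were called higher.

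Energy metabolism changed at few points. Of 25 genes of glycolysis and the response to low oxygen, 3 were called higher (12%, near the background; median -0.08). Slc16a1, the lactate transporter MCT1, had 106, 111 and 106 CPM in the day 6 libraries, against 54.6, 51.7 and 59.5 CPM in the controls (log2 change 0.96 ± 0.09, adjusted p = 2.67e-05). Hk2, the hexokinase of activated cells, had 13.03, 26.9 and 17.6 CPM, against 2.22, 3.94 and 3.37 CPM (log2 change 2.59 ± 0.32), and Slc16a3, the transporter MCT4, changed by 1.37 ± 0.28. Aldoa, aldolase A, was not called at 1120, 901 and 1051 CPM, against 1074, 1138 and 1072 CPM. Subunits of the respiratory chain had 0 of 28 called by edgeR (median -0.14), with 6 at an unadjusted p below 0.05 and 0 called by DESeq2 or limma voom, while 4 were called lower without day 6 replicate 1. Atp5b had 896, 765 and 833 CPM, against 906, 944 and 956 CPM (adjusted p = 0.273).

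Genes of iron, haem and the antioxidant response had 13 of 30 members called higher and 1 lower (median 0.23). Subunits of the phagocyte NADPH oxidase, which makes superoxide, led the list: Cybb had 11.8, 39.01 and 24.8 CPM in the day 6 libraries, against 0.754, 0.558 and 1.12 CPM in the controls (log2 change 4.96 ± 0.46, adjusted p = 1.70e-04), and Cyba had 18.4, 38.9 and 33.6 CPM, against 4.78, 2.31 and 1.92 CPM. Prdx6, a peroxiredoxin that astrocytes express, had 228, 272 and 245 CPM, against 158, 165 and 141 CPM (log2 change 0.68 ± 0.11). These 3 showed no overlap of the groups. The transferrin receptor gene Tfrc, which takes iron into cells, was lower, at 97.1, 112 and 111 CPM, against 121, 153 and 161 CPM (log2 change -0.44 ± 0.12), a call lost without any 1 day 6 library or control replicate 2 or 3. Fth1, the ferritin heavy chain, had 1381, 1393 and 1332 CPM, against 1039, 1417 and 1229 CPM, and was not called (adjusted p = 0.541).

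Among heat shock and unfolded protein genes 5 of 21 were called higher (median 0.12), all of them of the endoplasmic reticulum or its stress response. Pdia4, a disulfide isomerase, had 43.5, 55.5 and 52.9 CPM in the day 6 libraries, against 30.9, 29.4 and 28.6 CPM in the controls (log2 change 0.77 ± 0.11, adjusted p = 4.53e-04), and Calr, calreticulin, had 492, 601 and 554 CPM, against 359.9, 399.9 and 385 CPM (log2 change 0.52 ± 0.10). Hspa5, the main chaperone of that compartment, changed by 0.29 ± 0.09, a call lost without any 1 library other than day 6 replicate 1. Pdia6 changed by 0.33 ± 0.09 and Trib3 by 2.34 ± 0.64, and those calls were lost without day 6 replicate 2 or 3 or control replicate 2, that of Pdia6 also without control replicate 3 and that of Trib3 without control replicate 1. The number called higher was 2 without day 6 replicate 2, day 6 replicate 3 or control replicate 2 and 3 without control replicate 1 or 3, and 1 was called lower without control replicate 1. Hsp90aa1, the cytosolic chaperone, was not called at 874, 897 and 834 CPM, against 943, 956 and 1006 CPM. Cytosolic ribosomal proteins had 4 of 35 called higher (11.4%, near the background; median 0.16). Rplp0 had 119, 113 and 115 CPM, against 87.7, 78.8 and 71.8 CPM (log2 change 0.54 ± 0.12, adjusted p = 0.00758), and the calls of Rpl23, Rps9 and Rpl7 were each lost without day 6 replicate 2 or control replicate 3, which left 1. The number was 2 without day 6 replicate 1, day 6 replicate 3 or control replicate 2. Rpl4 had 482, 470.1 and 447 CPM, against 454, 439.6 and 405 CPM, and was not called. Ribosomal protein genes have many processed copies in the genome, which makes their counts uncertain.

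Genes of DNA replication and mitosis had 15 of 31 members called higher and none lower (median 1.05), and 8 without day 6 replicate 2. Cdk1, the kinase that drives entry into mitosis, had 2.37, 4.99 and 5.01 CPM in the day 6 libraries, against 0.126, 0.446 and 0.125 CPM in the controls (log2 change 4.07 ± 0.45, adjusted p = 1.06e-04). Mcm3, a subunit of the replicative helicase, had 9.01, 11.4 and 9.13 CPM, against 2.39, 3.198 and 2.998 CPM (log2 change 1.78 ± 0.21). Bub1b, of the spindle checkpoint, had 1.44, 3.16 and 4.04 CPM, against 0.168, 0.521 and 0.25 CPM, and Rrm2, which supplies nucleotides for replication, had 4.12, 8.79 and 8.48 CPM, against 2.304, 1.86 and 2.04 CPM. Each day 6 library exceeded each control in these 4. Ccnd1, cyclin D1, was not called at 19.9, 33.4 and 24.2 CPM, against 22.2, 26 and 20.9 CPM (adjusted p = 0.704).

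The IGF family, with its binding proteins, had 2 of 12 members called higher (16.7%; median 0.14). Igfbp5, a secreted binding protein, had 327, 479 and 406 CPM in the day 6 libraries, against 221, 178 and 159 CPM in the controls (log2 change 1.12 ± 0.21, adjusted p = 0.00805). Igf2r, which also sorts enzymes to lysosomes, had 50.6, 73.2 and 66.5 CPM, against 45.5, 42.1 and 40.1 CPM (log2 change 0.57 ± 0.13), a call lost without day 6 replicate 2 or 3 or control replicate 3, while 4 were called without day 6 replicate 1. Igf1r had 83.1, 88.2 and 79.2 CPM, against 74.02, 76.9 and 73.5 CPM, and was not called. Of 12 genes that respond to glucocorticoids, 2 were called higher (16.7%; median 0.19). Sgk1, a kinase, had 77.4, 121 and 108 CPM, against 47.7, 49.5 and 63.8 CPM (log2 change 0.93 ± 0.20, adjusted p = 0.0154), and Nfkbia, the inhibitor of NF-kappaB, changed by 0.69 ± 0.17. None was called without day 6 replicate 2 or 3 or control replicate 2, and 1 without control replicate 3. Nr3c1, the glucocorticoid receptor, was not called at 129.5, 143 and 151 CPM, against 137, 144 and 167 CPM.

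The 20 genes with the largest rises and falls were also tested between day 6 and day 2 in cortex, in the same fit, where 11.6% of all genes tested were called. The 20 were chosen on the day 6 libraries that this comparison uses again, so the count is a description and nothing is read from it against that share. Of the 20, 12 differed, with 7 higher and 5 lower at day 6 than at day 2. Mmp12 had 53.9, 237 and 144 CPM in the day 6 libraries, against 4.32, 7.94 and 15.2 CPM at day 2, and Atp6v0d2 had 4.27, 27.4 and 15.3 CPM, against 0.443, 0.307 and 0.162 CPM. No library of one time overlapped the other in these genes. Spp1 had 742, 4023 and 2324 CPM at day 6, against 469, 718 and 814 CPM at day 2, and this difference was not called (adjusted p = 0.1001). Car12 had 11.3, 10.03 and 11.6 CPM, against 27.1, 26.4 and 30.1 CPM, lower at day 6 than at day 2. The number of the 20 that differed was 6 without day 6 replicate 3 and 7 without day 2 replicate 3.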

How the data were processed

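Poly(A)-selected RNA of mouse cortex was sequenced in paired ends, per the labels' protocols, and aligned with HISAT2 2.1.0 to mm10, per the submitters' processing notes. No source used here names the tool, annotation or strand setting of the counting. The authors deposited raw read counts per gene in 1 table. Of its 26783 lines, 865 identical copies of a name were dropped. The 9 cortex libraries were fitted together with edgeR 4.0.16 in R 4.3.3 (filterByExpr, TMM factors, quasi-likelihood test with robust estimation, Benjamini-Hochberg adjustment, threshold 0.05), and day 6 was tested against control. The standard error is the log2 change divided by the square root of the F statistic. The prior count was 0.125. The script was tested on simulated data. Alternatives were DESeq2 1.42.0 and limma 3.58.1 (voom), other filters and factors, a replicate block, the 6 libraries alone and leaving out each library.

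Genes named in the text are, per list, up to 4 called with the smallest adjusted p, up to 2 called in the other direction and the uncalled gene with the highest mean CPM. Also named are the 10 largest rises and 10 largest falls among genes that were called without any 1 library, did not overlap between groups and reached a mean of 5 CPM in the higher group, with unnamed loci, antigen receptor segments, microRNA and small nucleolar RNA genes skipped; others were chosen after their values were seen. The members and lists were chosen with earlier results of these data known. Fold bounds use a floor of 3 counts over the controls, and ratios on 1 to 3 control counts have 95% intervals for counting error only. Reads shared with near-identical copies (MHC, Lilr, Gbp and Fc receptor genes, some chemokines) make those counts uncertain. Promoter letters were searched in RefSeq windows, and spans came from GENCODE M21. Values of some named members are not reported here.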

Additional observations from a re-analysis of the deposited data

Results flagged for a closer look

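Of the 20 genes with the largest rises and falls against the controls, 12 also differed between day 6 and day 2 by the test of that difference in the same fit, where 11.6% of all genes tested were called. The 20 were chosen on the day 6 libraries that enter this comparison again, so the count is given as a description, and nothing is read from it against that share. Higher at day 6 than at day 2 were Atp6v0d2 (log2 difference 5.66, adjusted p = 0.00289), Gpnmb (4.21, 0.0116), Rny1 (4.18, 0.00103), Mmp13 (4.03, 0.035), Mmp12 (3.99, 0.0166), Rn7sk (3.14, 0.0309) and Cd22 (2.64, 0.0028). Lower at day 6 than at day 2 were Car12 (-1.35, 0.00103), Lin28b (-1.32, 0.0124), Aff2 (-1.04, 0.0405), Klf12 (-1.03, 0.00503) and Ccdc73 (-0.91, 0.0175). Rny1 had 21.2, 14.7 and 39.7 CPM in the day 6 libraries, against 0.942, 2.46 and 0.701 CPM at day 2, and Klf12 had 9.42, 8.29 and 10.4 CPM at day 6, against 22, 14.8 and 20.3 CPM at day 2. Lin28b had 3.71, 3.02 and 2.91 CPM at day 6, against 8.53, 4.305 and 11.4 CPM at day 2. No library of one time overlapped the other in these 3 genes. Groups of 3 libraries are too small for the search for single outlying samples.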

How the results depend on the processing

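Calls over all genes kept within 1.5 times of 1873 (1440 higher, 433 lower) with other size factors (1863), no filter on low counts (1922), a filter of 1 CPM in 3 libraries (1834) and limma voom (1651). DESeq2 called 2411 genes, of which 654 were lower, and the fit of the day 6 and control libraries alone 2352, of which 839 were lower. At an adjusted p below 0.01 there were 941 calls (837 higher, 104 lower), and with at least a 2-fold change 1062, of which 90 were lower. Leaving out 1 library gave 1005 to 2091 calls, 864 to 1662 higher and 141 to 429 lower, the fewest without day 6 replicate 2. With the replicate number as a block 2050 genes were called, 1785 of them shared; same-numbered libraries did not deviate together (correlations -0.0408, -0.0115 and -0.00729), so that the numbers were not taken as pairs. Among genes with the largest changes, 12 differed from day 2, 6 to 12 without 1 library, 10 with limma voom and 8 in the day 6 and day 2 libraries alone. Of 167 named genes that were called, 40 lost the call without day 6 replicate 2, 32 without day 6 replicate 3, 30 each without control replicates 2 and 3, 9 with limma voom, 8 with no filter, 2 with the block, 2 in the 6 libraries alone and 1 with other size factors. No called value changed sign, and 8 uncalled estimates did. Most of these genes were named for small adjusted p-values or for calls that held without any 1 library, so their losses do not stand for all calls. Over all genes, 981 of the 1873 calls were kept without day 6 replicate 2. Depth ran from 13005050 to 27654269 counts, and a limit set by it was not tested.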

Other observations

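Il1rn, which encodes the antagonist of the interleukin-1 receptor, was looked at after its values were seen. It had 458 reads in the day 6 libraries and none in the controls. Its levels were 0.309, 16.3 and 7.84 CPM at day 6, against 0, 0 and 0 CPM in the controls, and it was not called by edgeR (adjusted p = 0.0859). Day 6 replicate 1 held almost none of these reads.

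The striatal gene Adora2a was not called in the fit of all 9 cortex libraries. Adora2a had 1.75, 2.38 and 2.26 CPM in the day 6 libraries, against 1.59, 23.7 and 30.4 CPM in the controls, where replicate 1 lay with the day 6 libraries. The day 2 libraries, which share the estimate of the spread, had 4.99, 1.33 and 64.8 CPM.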
